A study of Mus musculus with 6 samples.

Results

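The 10 genes described here encode the core of the Polycomb repressive complexes PRC1 and PRC2. They were picked by name as the rows of the deposited table whose symbol is Ezh1, Ezh2, Eed, Suz12, Jarid2, Rbbp4, Rbbp7, Bmi1, Ring1 or Rnf2. All 10 were found once each among 47643 genes. They were compared between 3 KO and 3 WT RNA-seq libraries of L-GMP cells, the leukaemic counterpart of the granulocyte-macrophage progenitor (GMP), from which granulocytes and monocytes arise in normal marrow. KO libraries carry the label of a knockout of both Prkaa1 and Prkaa2, the catalytic subunit genes of the energy sensor AMPK, and WT libraries that of wild type. All 6 libraries share the C57BL/6 strain, the L-GMP sort, Smart-seq2 cDNA and Nextera XT libraries. The oncogene behind the leukaemia, the way the 2 genes were deleted, the age of the mice and the number of mice behind each library are not stated in the sources used here. The p-values therefore reflect only how far these 6 libraries scatter, and that scatter may be technical.

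Polycomb complexes keep genes silent by marking histones. PRC2 methylates H3K27 through EZH1 or EZH2, which work only when bound to EED and SUZ12, and RBBP4 or RBBP7 help the complex hold histones. PRC1 is built around the E3 ligase RING1 or RNF2 (RING1B), paired with 1 of the PCGF proteins such as BMI1, and adds ubiquitin to histone H2A. In blood, Ezh2 is typical of dividing progenitors and Ezh1 of resting and mature cells, and BMI1 is known for stem cell self-renewal and for repression of the Cdkn2a locus. In L-GMP libraries labelled KO, RNA of the ligase gene Rnf2 was 4.31-fold lower than in WT, Rbbp7 was 1.34-fold lower, Ezh1 was 2.17-fold higher and Jarid2 1.73-fold higher. Rbbp4 was 1.14-fold lower, a call that was lost on leaving out single libraries. RNA of Ezh2, Eed, Suz12 and Bmi1 did not pass the test. These outcomes depend in part on the scaling described below. With libraries rescaled to equal sums, Ezh2 and Eed were lower in KO and Jarid2 lost its call.

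Values are FPKM, which scale reads by gene length and library size, so that levels of different genes can be set side by side. A gene is called higher or lower, or said to have risen or fallen, where limma's adjusted p on log2(FPKM + 1) was under 0.05, fitted over the 9108 genes that averaged 1 FPKM or more across all libraries. That scale understates the change of weakly expressed genes. Of the 10 genes, 9 reached this mean and Ring1 did not. The library scaling matters here. The FPKM values sum to between 649611 and 653819 in KO libraries and to between 463683 and 475654 in WT libraries. Rescaling all libraries to equal sums moved the median log2 change of all tested genes to -0.41, against -0.02 as deposited. Changes after that rescaling are given where they alter a call or direction, and are to be read against this shift.

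The whole series gives this setting. Prkaa1 RNA was 0.548 to 1.11 FPKM in KO libraries and 1.80 to 2.20 FPKM in WT libraries (138 reads in KO and 422 in WT), so the KO libraries still held Prkaa1 RNA. Prkaa2 was nearly unread in both, with 4 reads in KO and 2 in WT. Of the 9108 tested genes, 38.0% were called higher and 40.4% lower in KO, together 78.4%. Cell type markers differed widely. All 9 listed markers of granulocyte-monocyte progenitors were read in both genotypes. Their summed levels were 16711 to 17007 FPKM in KO against 7843 to 8144 FPKM in WT. Of the 8 tested, 5 were higher and 3 lower in KO, against 3 higher and 4 lower with libraries rescaled to equal sums. Among the 9, Cd34 was at 3.37 to 3.68 FPKM in KO and 26.98 to 28.7 FPKM in WT, and Kit was at 1.41 to 1.46 FPKM in KO and 0.180 to 0.309 FPKM in WT. Summed levels of 13 neutrophil markers were 71661 to 73035 FPKM in KO against 388 to 399.8 FPKM in WT (Ly6g, Retnlg and Fcnb at 0 in WT and Mmp9 at 0 in KO). Those of 10 basophil, mast cell and eosinophil markers were 561 to 591 FPKM in KO against 30.1 to 36.2 FPKM in WT (Fcer1a, Prss34 and Epx at 0 in WT, Ccr3 at 0 in WT and Il5ra at 0 in all libraries). Those of 12 erythroid markers were 237 to 245 FPKM in KO against 33.8 to 37.3 FPKM in WT (Gata1, Epor and Car1 among those at 0 in WT and Alas2 at 0 in KO). The lymphoid markers Pax5, Cd3e, Cd3g, Cd8a, Ncr1 and Klrb1c were at 0 in all 6 libraries, but other markers on those lists were read. The summed levels were 55.9 to 58.2 FPKM in KO and 83.6 to 91.2 FPKM in WT for B cells. For T cells they were 0.709 to 1.23 FPKM in KO and 2.12 to 2.26 FPKM in WT. For the NK cell list they were 115 to 116 FPKM in KO and 51.6 to 54.7 FPKM in WT. That list has 3 genes, so its sum is the level of the only gene besides Ncr1 and Klrb1c. Monocyte and dendritic cell markers summed to 167 to 177 FPKM in KO and 382 to 397 FPKM in WT (Ccr2 and F13a1 at 0 in KO, Siglech at 0 in WT). Megakaryocyte markers summed to 12.9 to 14.1 FPKM in KO and 4.98 to 5.89 FPKM in WT (Gp9, Gp1bb and Ppbp among those at 0 in all libraries, and Itga2b at 0 in WT). The part of these cell type differences in the results below was not tested, and in bulk RNA fewer cells of a type and less RNA per cell cannot be told apart.

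The promoter windows of 4 of the genes are shown because Rnf2 and Ezh1 had the largest called fall and rise of the 10, and Rbbp7 and Rbbp4 are a pair of paralogues that were both lower in KO. Each is the 250 bases before the RefSeq transcription start (GRCm38.p6), written 5′ to 3′ on the gene's own strand, and none of the 4 contains an annotated exon of GENCODE M21. Capitals mark CCAAT (seen on the opposite strand as ATTGG) and the MYC E-box CACGTG.
Rnf2, chr1:151500992-151501241, minus strand: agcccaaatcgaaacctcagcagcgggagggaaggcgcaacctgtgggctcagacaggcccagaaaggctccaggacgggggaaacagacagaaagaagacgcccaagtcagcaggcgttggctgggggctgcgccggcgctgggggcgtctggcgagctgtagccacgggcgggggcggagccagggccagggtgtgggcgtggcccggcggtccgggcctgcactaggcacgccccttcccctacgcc
Ezh1, chr11:101226464-101226713, minus strand: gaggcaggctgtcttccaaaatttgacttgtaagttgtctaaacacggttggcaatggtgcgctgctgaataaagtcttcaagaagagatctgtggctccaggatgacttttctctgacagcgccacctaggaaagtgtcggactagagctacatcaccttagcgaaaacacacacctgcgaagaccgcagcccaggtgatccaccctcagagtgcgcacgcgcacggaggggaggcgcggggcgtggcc
Rbbp7, chrX:162760122-162760371, plus strand: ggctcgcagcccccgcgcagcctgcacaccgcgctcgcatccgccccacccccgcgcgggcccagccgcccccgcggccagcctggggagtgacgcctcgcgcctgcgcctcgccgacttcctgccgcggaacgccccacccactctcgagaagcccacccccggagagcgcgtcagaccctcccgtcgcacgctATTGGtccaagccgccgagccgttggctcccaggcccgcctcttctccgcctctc
Rbbp4, chr4:129335371-129335620, minus strand: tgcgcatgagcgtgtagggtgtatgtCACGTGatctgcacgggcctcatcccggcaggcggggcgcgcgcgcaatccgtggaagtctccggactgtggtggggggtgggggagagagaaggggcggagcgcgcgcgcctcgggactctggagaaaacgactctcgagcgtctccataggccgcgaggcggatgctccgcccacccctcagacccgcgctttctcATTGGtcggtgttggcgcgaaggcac

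The windows of Rnf2 and Ezh1 held none of the 5 motifs searched on both strands, while those of Rbbp7 and Rbbp4 each held 1 CCAAT, beginning 55 and 26 bases before the start. Over all 10 genes, 5 had a CCAAT in a window (Ezh2, Suz12, Jarid2, Rbbp4 and Rbbp7), against 33.8% of 32851 RefSeq windows of the same length. A CACGTG stood before Bmi1 and Rbbp4, against 6.02% of all windows. The E2F words TTTGGCGC and TTTCGCGC (0.654% of all windows), the NRF1 palindrome (0.782%) and the ETS word CCGGAAGT (2.88%) were not found before any of the 10. The Ezh1 window was 55.2% G or C, that of Rnf2 70.4%, that of Rbbp4 67.6% and that of Rbbp7 76.4%. Such matches describe letters and say nothing of binding.

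In level, the 10 genes spanned a wide range. Rbbp7 was the most abundant in both genotypes and lay at the 86.7th percentile of tested genes by mean FPKM. Eed (60.7th), Rbbp4 (58.0th) and Ezh2 (48.0th) were near the middle, and Suz12 (31.9th), Rnf2 (26.0th), Ezh1 (15.8th), Jarid2 (13.6th) and Bmi1 (11.8th) lay in the lower part. In KO the order from high to low was Rbbp7, Eed, Rbbp4, Ezh2, Suz12, Ezh1, Jarid2, Bmi1, Rnf2 and Ring1, and the library ranges of neighbours overlapped for Ezh1 with Jarid2 and for Jarid2 with Bmi1. In WT it was Rbbp7, Eed, Rbbp4, Ezh2, Rnf2, Suz12, Bmi1, Jarid2, Ezh1 and Ring1, with overlap of Eed with Rbbp4, Bmi1 with Jarid2 and Jarid2 with Ezh1. Rnf2 thus stood at rank 9 in KO and rank 5 in WT, and Ezh1 at rank 6 in KO and rank 9 in WT.

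**Figure D1:**
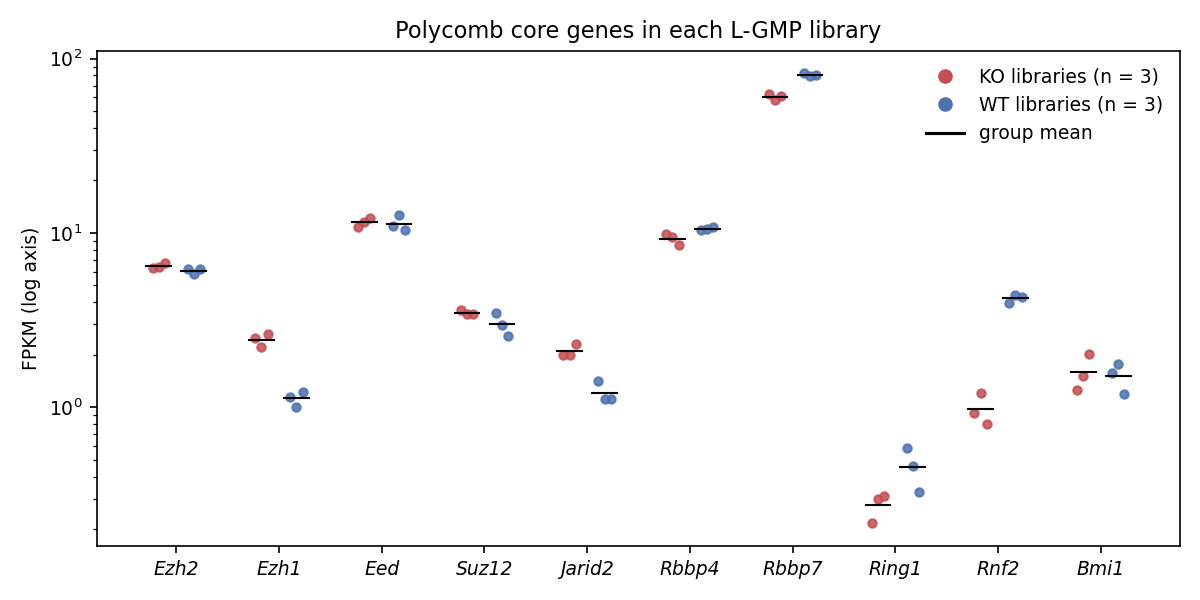
FPKM of the 10 core Polycomb genes on a log axis, with 1 point per library (3 KO and 3 WT) and a bar at each group mean. KO points lie wholly below WT points for Rnf2, Rbbp7, Rbbp4 and Ring1, wholly above for Ezh1, Jarid2 and Ezh2, and overlap for Eed, Suz12 and Bmi1.

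Among the catalytic subunits of PRC2, the balance of the 2 methyltransferases differed. Ezh1 (mm10 chromosome 11, 101191115 to 101226463, minus strand) had 2.49, 2.22 and 2.64 FPKM in KO replicates 1, 2 and 3, against 1.15, 1.01 and 1.23 FPKM in WT replicates 1, 2 and 3. The lowest KO library was well above the highest WT library. The means were 2.45 ± 0.214 FPKM in KO and 1.13 ± 0.111 FPKM in WT (SD, n = 3 each), a log2 change of 0.69 (SE 0.09, limma adjusted p = 0.000186), from 679 reads in KO and 374 in WT. Rescaled to equal sums, Ezh1 was still higher in KO (log2 change 0.40, limma adjusted p = 0.00340). Ezh2 (chromosome 6, 47530139 to 47595341, minus strand) had 6.30, 6.38 and 6.69 FPKM in KO against 6.19, 5.84 and 6.21 FPKM in WT. These groups did not overlap, but lay close together, and the log2 change of 0.08 (95% interval -0.06 to 0.21, limma adjusted p = 0.266) did not pass. With libraries rescaled to equal sums Ezh2 was lower in KO (log2 change -0.33, limma adjusted p = 0.00126), so its direction depends on the scaling.

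A ratio within a library does not depend on library scaling. Ezh2 over Ezh1 was 2.53, 2.88 and 2.54 in KO replicates 1, 2 and 3, against 5.37, 5.78 and 5.05 in WT replicates. Every KO ratio lay under every WT ratio. The means were 2.65 ± 0.201 in KO and 5.40 ± 0.367 in WT (SD, n = 3 each), a log2 difference of -1.03 with an exact two-sided permutation p of 0.1, the smallest that 3 against 3 libraries can give (adjusted over 3 paralogue pairs, also 0.1). Ezh2 made up 72.5% of the summed Ezh1 and Ezh2 FPKM in KO and 84.3% in WT. The sum itself was 8.91 ± 0.378 FPKM in KO and 7.21 ± 0.314 FPKM in WT (exact permutation p = 0.1). Its direction depends on the scaling: after rescaling each library to sum to 1000000 it was 13.7 ± 0.619 in KO and 15.3 ± 0.686 in WT (SD, n = 3 each).

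**Figure D2:**
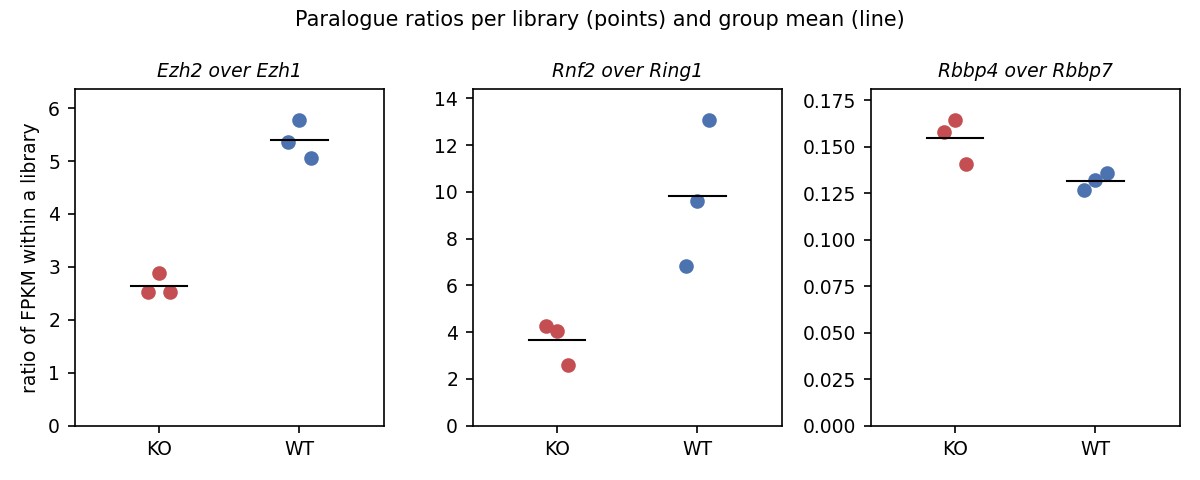
Ratio of FPKM within each library for 3 paralogue pairs, with KO libraries on the left and WT on the right of each panel (points are libraries, lines are group means, axes start at 0). Ezh2 over Ezh1 averaged 2.65 in KO and 5.40 in WT, Rnf2 over Ring1 3.65 in KO and 9.85 in WT, and Rbbp4 over Rbbp7 0.155 in KO and 0.132 in WT, with no overlap in any panel.

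The scaffold genes of PRC2 did not pass the test. Eed, whose protein binds methylated H3K27 and switches on the methyltransferase, had 10.8, 11.5 and 12.2 FPKM in KO against 10.9, 12.6 and 10.4 FPKM in WT. The groups overlapped, with a log2 change of 0.02 (95% interval -0.17 to 0.22, limma adjusted p = 0.793). Suz12, which holds the complex together, had 3.62, 3.42 and 3.42 FPKM in KO against 3.48, 2.97 and 2.58 FPKM in WT. Here WT replicate 1 lay inside the KO range, and the log2 change was 0.17 (95% interval -0.06 to 0.39, limma adjusted p = 0.145). Without WT replicate 1, Suz12 passed as higher in KO (log2 change 0.25, limma adjusted p = 0.0389), so that 1 library decides its call. With libraries rescaled to equal sums the directions turned, Eed to -0.41 (limma adjusted p = 0.00264, lower in KO) and Suz12 to -0.19 (limma adjusted p = 0.119). Eed lies on chromosome 7, 89954654 to 89980983, minus strand, and Suz12 on chromosome 11, 79993106 to 80034123, plus strand.

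Jarid2, a cofactor that helps to recruit PRC2 to chromatin, rose in KO. It had 2.004, 2.004 and 2.31 FPKM in KO replicates 1, 2 and 3, against 1.42, 1.11 and 1.12 FPKM in WT replicates. All KO libraries lay above all WT libraries. The means were 2.11 ± 0.175 FPKM in KO and 1.22 ± 0.174 FPKM in WT (SD, n = 3 each), a log2 change of 0.49 (SE 0.09, limma adjusted p = 0.00178), with 761 reads in KO and 524 in WT. The call was lost with libraries rescaled to equal sums (log2 change 0.20, limma adjusted p = 0.0890). Jarid2 lies on chromosome 13, 44729474 to 44921643, plus strand.

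The histone-binding chaperone genes Rbbp7 and Rbbp4 were both lower in KO. Both also serve the NuRD complex, and Rbbp4 the CAF-1 complex. Rbbp7 (chromosome X, 162760402 to 162779092, plus strand) had 62.3, 57.6 and 60.7 FPKM in KO against 82.4, 79.4 and 80.1 FPKM in WT. KO libraries stood wholly below WT libraries, at means of 60.2 ± 2.36 FPKM in KO and 80.6 ± 1.56 FPKM in WT (SD, n = 3 each; log2 change -0.42, SE 0.04, limma adjusted p = 2.69e-05). Rbbp4 (chromosome 4, 129307100 to 129335370, minus strand) had 9.84, 9.48 and 8.55 FPKM in KO against 10.4, 10.5 and 10.9 FPKM in WT. Its groups did not overlap, but the fall was small (log2 change -0.18, SE 0.06, limma adjusted p = 0.0348). The Rbbp4 call was lost on leaving out KO replicate 2, KO replicate 3 or any WT replicate, with limma adjusted p between 0.0536 and 0.101, and with quantile normalization (0.0851). Rbbp4 shares 18.0% of its exonic bases with Sync and Gm26722, and Rbbp7 resembles the processed pseudogene Gm6382 over 942 bases at 97.1% identity, so both are uncertain to that extent. Rbbp4 also has the processed pseudogene Gm4800, alike over 1280 bases at 90.9% identity. Gm6382 itself reached at most 2.41 FPKM. Rbbp4 made up 13.4% of the pair's summed FPKM in KO and 11.6% in WT, and the ratio of Rbbp4 to Rbbp7 was 0.155 ± 0.0122 in KO and 0.132 ± 0.00461 in WT (SD, n = 3 each, exact permutation p = 0.1).

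On the PRC1 side, the ligase gene Rnf2 showed the largest change of the 10. It had 0.928, 1.21 and 0.805 FPKM in KO replicates 1, 2 and 3, against 3.98, 4.42 and 4.29 FPKM in WT replicates. The highest KO library had less than any WT library by a wide margin. The means were 0.982 ± 0.208 FPKM in KO and 4.23 ± 0.224 FPKM in WT (SD, n = 3 each), so that KO kept 23.2% of the WT level (log2 change -1.41, SE 0.10, limma adjusted p = 7.10e-06). These values rest on 49, 57 and 43 reads in KO and on 209, 330 and 250 reads in WT. Rnf2 passed the minimum mean through its WT values, as its KO mean was under 1 FPKM. Of the 9108 tested genes, 726 had a more negative log2 change. Rnf2 lies on chromosome 1, 151458004 to 151500955, minus strand, and shares 3.83% of its exonic bases with Trmt1l.

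Ring1, the other ligase gene, lay under the minimum mean and was not tested. It had 0.217, 0.298 and 0.310 FPKM in KO, against 0.582, 0.4601 and 0.328 FPKM in WT, or 33 reads in KO and 66 in WT. KO values were all below WT values, but KO replicate 3 and WT replicate 3 nearly met. In the fit without a minimum mean, Ring1 did not pass (log2 change -0.19, limma adjusted p = 0.102). Rnf2 over Ring1 was 4.28, 4.07 and 2.60 in KO against 6.84, 9.60 and 13.1 in WT, with no overlap (log2 difference -1.42, exact permutation p = 0.1). Summed over both ligase genes, the level was 1.26 ± 0.219 FPKM in KO and 4.69 ± 0.166 FPKM in WT (SD, n = 3 each), and Rnf2 supplied 78.1% of it in KO and 90.3% in WT. Ring1 lies on chromosome 17, 34020792 to 34024680, minus strand.

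Bmi1, the PCGF protein best known from blood stem cells, did not pass the test. It had 1.26, 1.52 and 2.02 FPKM in KO against 1.58, 1.77 and 1.195 FPKM in WT. The groups overlapped, and the log2 change was 0.04 (95% interval -0.28 to 0.37, limma adjusted p = 0.778). The sign turned with libraries rescaled to equal sums (-0.24, limma adjusted p = 0.146). Its coefficient of variation was 24.2% in KO and 19.2% in WT, where read counting alone would give 11.5% and 10.8%. The interval therefore does not show that Bmi1 was equal in the 2 genotypes. Bmi1 (chromosome 2, 18677018 to 18686629, plus strand) resembles the transcribed pseudogene Gm5946 over 2658 bases at 97.0% identity, and that pseudogene reached at most 0.0609 FPKM.

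Counted together, 2 of the 9 tested core genes were higher in KO (Ezh1 and Jarid2), 3 were lower (Rnf2, Rbbp7 and Rbbp4) and 4 did not pass. That is 55.6% called, against the background of 78.4%. KO and WT values did not overlap in 6 of the 9, against 80.6% of all tested genes. The median size of the log2 change, ignoring sign, was 0.18 for the 9 and 0.57 for all tested genes. With libraries rescaled to equal sums, 1 of the 9 was higher (Ezh1) and 5 were lower (Rnf2, Rbbp7, Rbbp4, Eed and Ezh2), against 22.8% and 59.1% of all tested genes (81.9% in either direction). With 0.1 FPKM added in place of 1, the log2 change grew to -2.02 for Rnf2, 1.05 for Ezh1 and 0.75 for Jarid2.

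**Figure D3:**
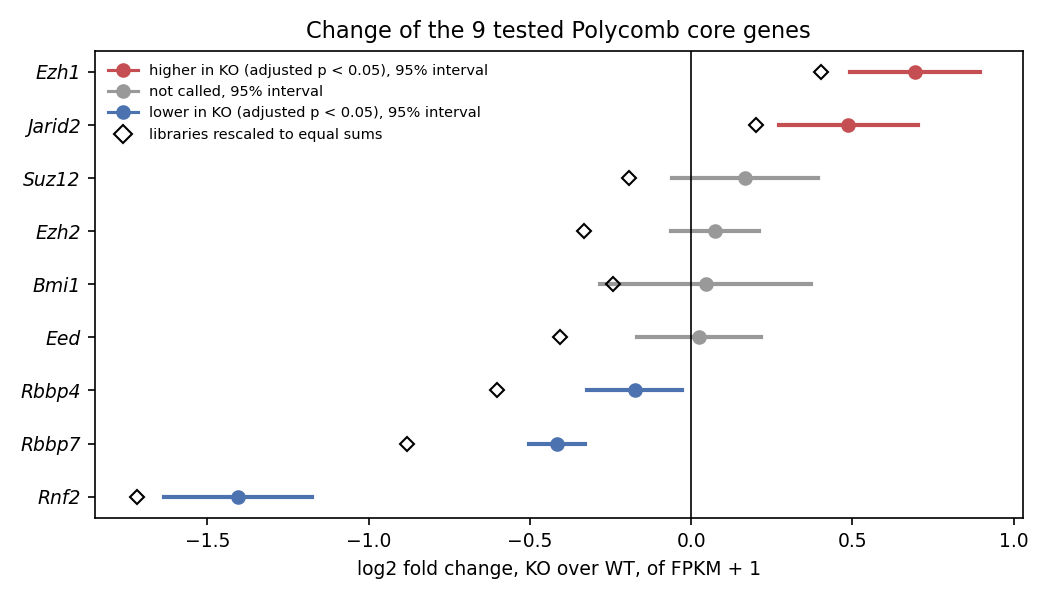
Log2 fold change of FPKM + 1 (KO over WT) for the 9 tested core genes, with filled points and 95% intervals from limma as deposited, and open diamonds for libraries rescaled to equal sums. Rnf2 stands alone at -1.41, Ezh1 is highest at 0.69, and the 4 genes not called (Suz12, Ezh2, Bmi1 and Eed) move to the left of 0 on rescaling.

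The other PCGF genes define the subtypes of PRC1. Among them Pcgf5 was called higher and Pcgf6 lower in KO. The share of each in the PCGF sum was computed after the values had been seen. Pcgf5, of a variant PRC1, was the most abundant, with 31.2, 31.0 and 27.02 FPKM in KO against 20.3, 18.5 and 19.3 FPKM in WT. It was 1.54-fold higher in KO (log2 change 0.59, SE 0.07, limma adjusted p = 0.000107) and made up 77.0 ± 2.58% of the summed FPKM of the 6 PCGF genes in KO against 56.1 ± 4.04% in WT (SD, n = 3 each). Its call was lost with libraries rescaled to equal sums (log2 change 0.14, limma adjusted p = 0.0893). Pcgf6, whose complex also holds L3mbtl2, E2f6 and Mga, fell 1.96-fold to 4.21 ± 0.897 FPKM in KO, against 8.24 ± 1.16 FPKM in WT (limma adjusted p = 0.00129). Pcgf2, the closest relative of Bmi1 in canonical PRC1, had 0.0887, 0.124 and 0.0219 FPKM in KO against 1.36, 1.05 and 1.15 FPKM in WT, or 10 reads against 185. It lay under the minimum mean and was not tested. Pcgf3, also untested, had 0.144 ± 0.0359 FPKM in KO and 0.470 ± 0.00999 FPKM in WT. In the fit without a minimum mean both were lower in KO (limma adjusted p = 0.000126 for Pcgf2 and 0.000792 for Pcgf3). That fit called 4663 of 21132 genes higher and 5769 lower. Pcgf1 did not pass, with overlapping groups at 2.84 ± 0.569 FPKM in KO and 3.85 ± 1.003 FPKM in WT (log2 change -0.33, limma adjusted p = 0.118). With libraries rescaled to equal sums Pcgf1 was lower in KO (log2 change -0.69, limma adjusted p = 0.00737). Bmi1 made up 4.20 ± 1.31% of the PCGF sum in KO and 4.36 ± 0.634% in WT. The sum was 38.6 ± 2.91 FPKM in KO and 34.6 ± 2.28 FPKM in WT as deposited, and 59.3 ± 4.28 in KO against 73.7 ± 5.73 in WT after rescaling each library to sum to 1000000, which turns its direction.

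**Figure D4:**
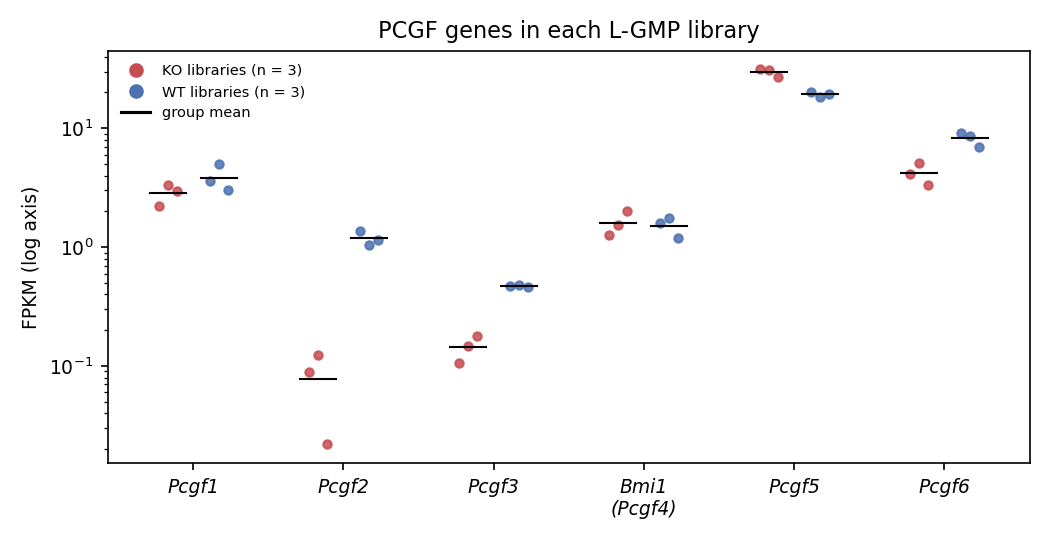
FPKM of the 6 PCGF genes on a log axis, with 1 point per library (3 KO, 3 WT) and a bar at each group mean. Pcgf5 is highest in both genotypes (29.8 in KO, 19.4 in WT), Pcgf2 has the widest gap (0.0783 in KO, 1.19 in WT) and Bmi1 overlaps.

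The counts for related genes below stand beside 38.0% higher and 40.4% lower among all tested genes as deposited, and 22.8% and 59.1% with libraries rescaled to equal sums. Partner subunits of PRC2 were mostly weak. Of 7 accessory genes, 2 were tested. Phf19, a reader of methylated histone H3 that brings PRC2 to chromatin, had 0.853, 1.06 and 0.798 FPKM in KO against 3.28, 3.45 and 3.55 FPKM in WT. No KO library came near a WT library, and the fall was 3.79-fold, with the minimum mean passed through the WT values (log2 change -1.22, SE 0.08, limma adjusted p = 6.92e-06). Mtf2, its relative, had 19.2 ± 0.400 FPKM in KO and 17.8 ± 0.814 FPKM in WT (SD, n = 3 each) and did not pass (log2 change 0.10, limma adjusted p = 0.0782). With libraries rescaled to equal sums Mtf2 turned to -0.34 and was called lower in KO (limma adjusted p = 0.000355). The 5 others lay under the minimum mean. Among them Epop had 10 reads in KO and 119 in WT (0.115 ± 0.0338 FPKM in KO, 1.14 ± 0.331 FPKM in WT), Phf1 had 0.983 ± 0.322 FPKM in KO and 0.205 ± 0.0526 FPKM in WT, Aebp2 had 1.08 ± 0.169 FPKM in KO and 0.721 ± 0.109 FPKM in WT, Lcor had 0.383 ± 0.183 FPKM in KO and 0.786 ± 0.0739 FPKM in WT, and Ezhip was at 0 throughout. In the fit without a minimum mean, Epop and Lcor were lower in KO (limma adjusted p = 0.00105 and 0.0316). Phf1 was higher there (limma adjusted p = 0.00561) and Aebp2 did not pass (limma adjusted p = 0.0653). Phf1 shares 39.3% of its exonic bases with other genes and is uncertain.

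Among 11 further canonical PRC1 genes, 2 were tested and both were higher in KO. Phc2, a polyhomeotic protein that clusters PRC1, had 2.07 ± 0.0801 FPKM in KO and 1.58 ± 0.0731 FPKM in WT (limma adjusted p = 0.0145). Both calls were lost with libraries rescaled to equal sums, and Phc2 turned to a log2 change of -0.053. The 9 untested genes went both ways in the fit without a minimum mean. Pcgf2 and Cbx8 were lower there in KO, and Cbx6, Phc1 and Phc3 were higher. Cbx8, Cbx6, Phc1 and Phc3 were named after their values were seen. Of 16 variant PRC1 genes 8 were tested, 4 of them higher and 2 lower, against 2 higher and 5 lower with libraries rescaled to equal sums. E2f6 rose 2.03-fold to 5.45 ± 0.565 FPKM in KO, against 2.68 ± 0.614 FPKM in WT (limma adjusted p = 0.000900), and Fbrs rose 2.24-fold to 2.12 ± 0.387 FPKM in KO, against 0.947 ± 0.191 FPKM in WT (limma adjusted p = 0.00132), passing the minimum through its KO values. L3mbtl2, a partner of Pcgf6 and E2f6, fell 2.02-fold to 2.92 ± 0.147 FPKM in KO, against 5.89 ± 0.304 FPKM in WT (limma adjusted p = 2.23e-05). It shares 17.2% of its exonic bases with Chadl and is uncertain to that extent.

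Enzymes that remove the Polycomb marks were also read. Of 12 genes of H2A deubiquitinases and their partners, 7 were tested, of which 4 fell in KO and 3 missed the threshold (6 lower with libraries rescaled to equal sums). Mysm1, an H2A deubiquitinase needed in blood formation, fell 2.66-fold to 0.971 ± 0.173 FPKM in KO, against 2.58 ± 0.209 FPKM in WT (limma adjusted p = 9.96e-05); it too passed the minimum through its WT values. Foxk2 and Hcfc1, partners of BAP1, fell 1.90-fold and 1.39-fold. Foxk1, named after its values were seen, lay under the minimum mean, with 196 reads in KO and 37 in WT. Without a minimum mean it was higher in KO (limma adjusted p = 0.00108). The H3K27 demethylase genes lay under the minimum mean, Kdm6a at 0.512 ± 0.0690 FPKM in KO and 0.567 ± 0.137 FPKM in WT, and Kdm6b at 8 reads in KO and 111 in WT. In the fit without a minimum mean Kdm6b was lower in KO (limma adjusted p = 0.00223) and Kdm6a did not pass (limma adjusted p = 0.668). The Y-linked Uty, like Ddx3y and Eif2s3y, was at 0 in all 6 libraries, and Kdm5d had 3 reads, in KO replicate 1 (0.0155 FPKM). Xist was at 3.76 to 4.14 FPKM in KO and 3.21 to 3.77 FPKM in WT. Xist, whose exons overlap those of its antisense gene Tsix, did not pass (log2 change 0.15, limma adjusted p = 0.116). With libraries rescaled to equal sums Xist was called lower in KO (log2 change -0.23).

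Of 13 CAF-1 and NuRD genes, whose complexes hold RBBP4, RBBP7 or both, 11 were tested. In KO, 5 of them fell and 2 rose, and 4 missed the threshold. With libraries rescaled to equal sums, 9 were lower and 0 higher. Mta2 and Mta3, NuRD scaffold proteins, fell 1.78-fold and 4.26-fold, Mta3 passing the minimum through its WT values, and Mbd3 fell 1.40-fold to 46.6 ± 0.636 FPKM in KO, against 65.1 ± 2.24 FPKM in WT (limma adjusted p = 1.02e-05). Hdac1, a deacetylase of NuRD, and Chd4, its remodelling ATPase, were 1.16-fold and 1.29-fold higher in KO. With libraries rescaled to equal sums they turned to log2 changes of -0.25 (limma adjusted p = 0.00108, lower) and -0.086 (limma adjusted p = 0.262). Hdac2, the other deacetylase and named after its values were seen, fell 1.40-fold (log2 change -0.45, limma adjusted p = 0.000624). The median log2 change of the 11 was -0.11 as deposited and -0.52 rescaled.

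The cyclin-dependent kinase inhibitors include the classical Polycomb target Cdkn2a. It had 46 reads in WT (0.881 ± 0.0835 FPKM, n = 3) and none in KO. The WT mean was 12.8-fold above a floor of 3 reads over the KO group. That figure leaves out the counting error of the WT reads. Its neighbour Cdkn2b was listed at 0 in each KO library and at 0.565, 0.317 and 1.53 FPKM in WT libraries. Neither reached the minimum mean. In the fit without a minimum mean both were lower in KO (limma adjusted p = 3.39e-05 for Cdkn2a and 0.0337 for Cdkn2b). Of the 4 tested inhibitors 3 were higher in KO and 1 was lower. Cdkn2d and Cdkn1a rose 3.95-fold and 2.22-fold, to 253 ± 5.87 and 414 ± 6.39 FPKM in KO, against 64.0 ± 2.05 and 187 ± 7.32 FPKM in WT (limma adjusted p = 7.44e-09 and 6.79e-08). Cdkn1c rose 6.98-fold, passing the minimum through its KO values, and overlaps Gm44732 over 30.7% of its exonic length. Cdkn2c fell 7.45-fold to 7.57 ± 0.512 FPKM in KO, against 56.4 ± 3.34 FPKM in WT (limma adjusted p = 3.01e-08). Cdkn1b was at 0.575 ± 0.165 FPKM in KO and 0.160 ± 0.0656 FPKM in WT and was not tested. Without a minimum mean Cdkn1b was higher in KO (limma adjusted p = 0.00868).

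**Figure D5:**
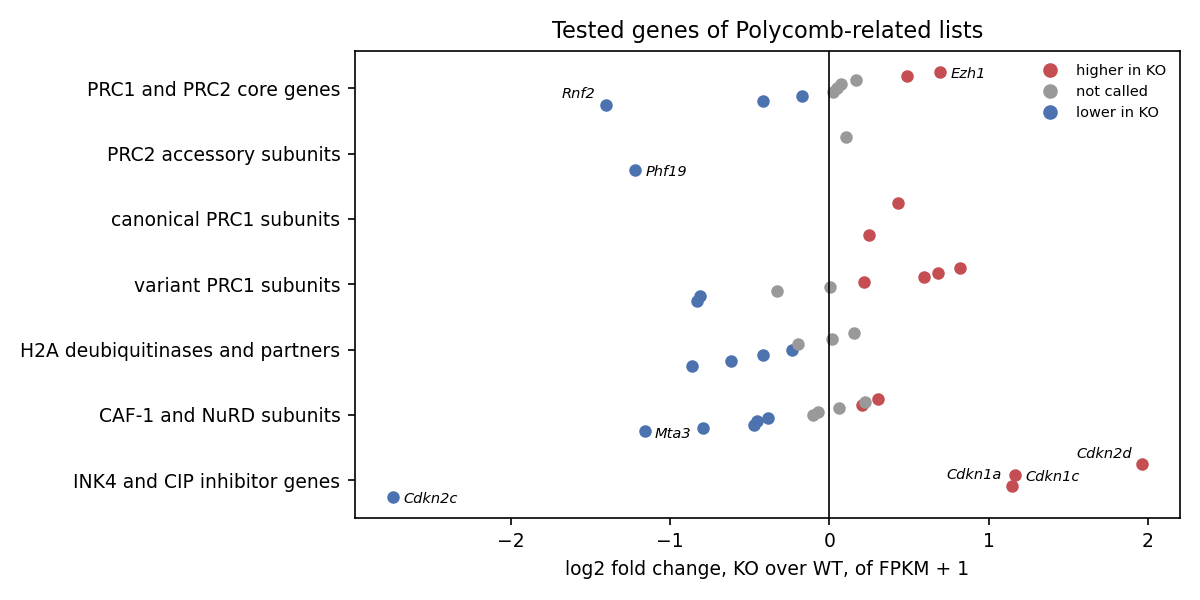
Log2 fold change of FPKM + 1 (KO over WT) for each tested gene of the core set and of 6 related lists, coloured by call. Rnf2, Phf19, Mta3 and Cdkn2c lie below -1, Cdkn2d, Cdkn1c and Cdkn1a lie above 1, and the core genes other than Rnf2 stay between -0.42 and 0.69.

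Proliferation genes are given beside these results because Ezh2 is high in dividing cells. All 20 were tested; 8 rose and 9 fell in KO and 3 missed the threshold, with a median log2 change of -0.06. With libraries rescaled to equal sums, 2 were higher and 15 lower, with a median of -0.52. Rrm2 and Top2a rose most, 2.59-fold and 1.63-fold, and Mcm2 and Ccnb1 fell most, 1.90-fold and 1.44-fold. Their summed level was 1553 to 1582 FPKM in KO and 1317 to 1340.3 FPKM in WT as deposited, and 2388 to 2435 in KO against 2816 to 2839 in WT after rescaling each library to sum to 1000000, which turns its direction. Their part in the values of Ezh2, Eed and Suz12 was not tested.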

How the data were processed

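CASAVA, bcl2fastq, STAR 2.5.3a, DESeq2 1.18.1 and the build mm10 are named, without roles, per the submitters' processing notes. The authors deposited 1 table of FPKM values per gene and library. Which counter, annotation and strand setting were used is not stated in the sources used here, so genes that share exonic bases are uncertain. Positions, exonic lengths and overlaps came from GENCODE M21 (GRCm38), which held 47224 of the 47643 gene IDs.

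Whole reads were recovered by dividing FPKM times exonic length by the value of 1 read in that library. All 6 values came out whole, within 0.001, for 78.0% of the 21132 genes above 0, including all 10 core genes, and the recovered reads came to 9306140 to 10530992 per KO library and 7904617 to 11390791 per WT library. They cover part of each library and counting error only, since PCR duplicates were not marked by molecular identifiers.

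The 9108 genes that averaged 1 FPKM or more were tested on log2(FPKM + 1) with limma 3.58.1 in R 4.3.3. The two-sided test used empirical Bayes with a trended prior variance, and p-values were adjusted by Benjamini-Hochberg over all 9108 (threshold 0.05). Alternatives changed the pseudocount (0.1), the minimum mean, the scaling, the variance model and the libraries. The test was tried on simulated data in which far fewer genes changed than were called here. Summed levels were also taken after rescaling, a choice made after seeing the data. Paralogue ratios were compared by exact permutation. Copies of the core genes were sought among GENCODE M21 transcripts with at least 90% identity over 200 bases. The core genes and lists were chosen with earlier results of these data known. Named genes were the 10 core genes, Prkaa1 and Prkaa2, every gene of Polycomb lists with up to 7 genes, and the 3 called genes that rose and the 3 that fell most in longer lists (2 each for proliferation). The PCGF genes are also given as a family. Of 175 list symbols, 173 were in the table as written, and Epop and Ezhip were found by older symbols. Tables and figures used Python 3.11.15, numpy 2.4.6, pandas 2.3.3 and matplotlib 3.10.9. Some genes that this rule or the marker lists would name are not reported here.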

Additional observations from a re-analysis of the deposited data

How the results depend on the processing

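Rnf2, Rbbp7 and Ezh1 kept their direction and call in every alternative in which they were tested (log2 changes -2.14 to -1.34, -0.88 to -0.36 and 0.40 to 1.13). Rescaling libraries to equal sums gave 1 core gene higher and 5 lower, 5 and 23 of the 34 tested genes of the 7 related lists (11 and 13 as deposited), and 2074 of all genes higher in place of 3464. It reversed Ezh2 (-0.33), Eed (-0.41), Suz12 (-0.19), Bmi1 (-0.24), Mtf2 (-0.34), Phc2 (-0.053), Chd4 (-0.086) and Hdac1 (-0.25). With no minimum mean more genes were tested, and the lists had 18 higher and 25 lower of 65. Of all 21132 genes tested there, 4663 were higher and 5769 lower. A minimum of 5 FPKM left 4 core genes tested and dropped Rnf2, Ezh1, Jarid2, Suz12 and Bmi1. With it, 0 core genes were higher and 2 lower. The lists then had 6 higher and 8 lower of 18 tested, and all genes 2072 higher and 2383 lower of 5211. Voom on recovered reads, added after seeing the data, gave 2 core genes higher and 3 lower. It gave 7 list genes higher and 12 lower among the 24 with reads. Of all 6504 genes tested that way, 2526 were higher and 2639 lower. Leaving out each library in turn gave 2 to 3 core genes higher and 2 to 3 lower, log2 ratio differences of -1.09 to -0.98 (Ezh2 over Ezh1), -1.65 to -1.19 (Rnf2 over Ring1) and 0.18 to 0.29 (Rbbp4 over Rbbp7), and log2 changes of -0.030 to 0.10 for Eed and -0.069 to 0.14 for Bmi1, both negative without KO replicate 3 or without WT replicate 3. The cause of these shifts was not tested. Same-numbered KO and WT libraries did not deviate together (r = 0.00946, -0.0118 and -0.0166 for replicates 1, 2 and 3). No pairing by number showed in these values, but with 3 libraries per group they cannot exclude it. With the replicate block 2 core genes were higher and 2 lower, as Rbbp4 lost its call (adjusted p = 0.0676), and all genes gave 3420 higher and 3620 lower. Few reads limit Ring1, Rnf2 in KO and Bmi1.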
